A study of Sus scrofa with 36 samples.

Results

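miR-144, miR-451 and miR-486 are the microRNAs most closely tied to red blood cells, and their levels were followed in the hearts of newborn pigs on 4 days after birth, day 1 (P1), day 3 (P3), day 7 (P7) and day 28 (P28). The members were all entries of the small RNA table whose mature miRNA is named miR-144, miR-451 or miR-486, which gave 3 mature miRNAs (ssc-miR-144, ssc-miR-451 and ssc-miR-486) from 4 precursor entries of the 411 mature miRNAs in the table. miR-486 was listed with 2 precursors. All 3 members passed the filter on low values (10 counts or more in 3 or more of the libraries) and were among 257 mature miRNAs tested.

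The study sequenced RNA of developing pig hearts to follow circular RNAs, miRNAs and genes over the days in which heart muscle cells stop dividing. The miRNA and gene values used here come from 12 hearts sent to CD Genomics, 3 at each age, with 1 small RNA library and 1 total RNA library at each number in an age. The animals were domestic Yorkshire pigs of both sexes, with no treatment and no engineered allele, and each heart was rinsed in cold saline and frozen. The 3 pigs of an age are called pig 4, pig 5 and pig 6 after the numbers in the column names, so pig 4 of P1 and pig 4 of P3 are different animals.

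miR-144 and miR-451 are cut from one primary transcript that the erythroid factor GATA1 switches on as red cell precursors mature, and miR-451 is unusual in being made by the slicing Argonaute protein without Dicer. Red cells lose their nucleus but keep mature miRNAs, so both are abundant in circulating blood and are often used to detect red cells in tissue RNA or haemolysis in plasma. miR-486 is made from an intron of ANK1, the gene of the red cell membrane anchor ankyrin, and is abundant in red cells but also in skeletal and heart muscle. In the RefSeq annotation of the pig genome Sscrofa11.1, MIR144 and MIR451 lay on the same chromosome with 0 genes starting between them, and MIR486-1 lay within ANK1.

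The small RNA libraries held 2921130 to 7917255 counts and the total RNA libraries 8887176 to 14883849. miR-1, the dominant miRNA of heart muscle, took 30.7% to 44.9% of miRNA counts, and the summed level of 7 mature cardiomyocyte miRNAs was 339800 to 480800 CPM (counts scaled to a fixed library total), so the libraries carried the markers of the labelled tissue. The 3 members together took 0.117% to 0.398% of miRNA counts. Levels are given as CPM of all miRNA counts of a library, on a linear scale. Differences are log2 fold changes of the later over the earlier age from edgeR's quasi-likelihood test with TMM scaling, with their standard error (SE), and a difference was called at a Benjamini-Hochberg adjusted p under 0.05 over all 257 miRNAs. TMM factors were 0.8 to 0.899 in the P28 libraries and 1.06 to 1.14 in the P7 libraries, so fitted differences that involve these ages depart from those of the plain CPM. Without TMM the median difference of all tested miRNAs between P1 and P28 was -0.23 instead of -0.02, and the calls were 33 higher and 73 lower at P28 instead of 49 higher and 48 lower.

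The summed share of the members was higher in hearts of P7 and P28 than in hearts of P1. It was 0.157% ± 0.0342 (SD, n = 3) at P1, 0.231% ± 0.0634 at P3, 0.353% ± 0.0752 at P7 and 0.369% ± 0.0193 at P28. The lowest library of P28 (0.349%) and the lowest of P7 (0.267%) lay above the highest of P1 (0.181%). In RNA of mixed heart tissue, more red cells, more RNA per red cell and less RNA from other cells cannot be told apart. The part of heart muscle in the counts of miR-486 was not tested either.

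miR-451 was the most abundant member in 10 of 12 libraries and the one with the largest fold change between P1 and P28. At P1 it stood at 509 CPM in pig 4, 1199 in pig 5 and 819.6 in pig 6. At P3 it stood at 1106, 1915 and 2004 CPM, and at P7 at 2379, 2406 and 1466 CPM in the same order. At P28 the values were 2341, 2863 and 2795 CPM. All P28 libraries lay above all P3 and P1 libraries, and all P7 libraries lay above all P1 libraries, while P3 overlapped with both P1 and P7. Of all miRNAs tested, 54.5% did not overlap between P1 and P28, 42.8% between P3 and P28 and 43.6% between P1 and P7. The joint test over the 4 ages passed for miR-451 (F = 13.2, adjusted p = 0.00149), as it did for 49.4% of all miRNAs tested.

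Between P1 and P28 miR-451 rose 3.63-fold (log2 1.86, SE 0.30, adjusted p = 0.000241), from 842.5 ± 345.5 CPM (SD, n = 3) to 2666 ± 283.8 CPM. Its ranks among all mature miRNAs were 66, 44 and 53 at P1 and 27, 25 and 25 at P28 (pigs 4, 5 and 6). Between P1 and P28, 37.7% of miRNAs passed the test in either direction and 19.1% were higher at P28. Between P1 and P7, where 26.5% of miRNAs passed, miR-451 rose 2.19-fold (log2 1.13, SE 0.30, adjusted p = 0.0127). Between P3 and P28, where 21.4% passed, it rose 1.94-fold (log2 0.96, SE 0.29, adjusted p = 0.0307). With library totals in place of TMM the rise from P3 to P28 was not called (log2 0.67, adjusted p = 0.0894).

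By edgeR's quasi-likelihood test no neighbouring ages of miR-451 differed past the threshold. The log2 difference was 0.90 from P1 to P3 (SE 0.29, adjusted p = 0.115), where 4.28% of miRNAs passed, 0.23 from P3 to P7 (SE 0.29, adjusted p = 0.684) and 0.73 from P7 to P28 (SE 0.29, adjusted p = 0.0724), where 30.7% passed. At the thresholds used in the study, an unadjusted p of 0.05 and a log2 change over 0.5, it passed from P1 to P3, as did 13.2% of miRNAs, and from P7 to P28, as did 32.3%. With DESeq2, which called 18 miRNAs between P1 and P3 and 80 between P7 and P28, it passed in both (adjusted p = 0.0398 and 0.0443). The rise from P1 to P28 was called without any 1 of the 12 libraries, with log2 differences of 1.49 to 2.23. The rise from P1 to P7 was not called without P1 pig 4 (adjusted p = 0.0784), P1 pig 6 (0.0675), P7 pig 4 (0.0637) or P7 pig 5 (0.0625). The rise from P3 to P28 was not called without P1 pig 6 (adjusted p = 0.0596), P3 pig 4 (0.198), P3 pig 5 (0.0558), P7 pig 4 (0.073), P7 pig 5 (0.0504) or any of the P28 libraries (0.0523 without pig 4, 0.0817 without pig 5 and 0.152 without pig 6).

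**Figure D1:**
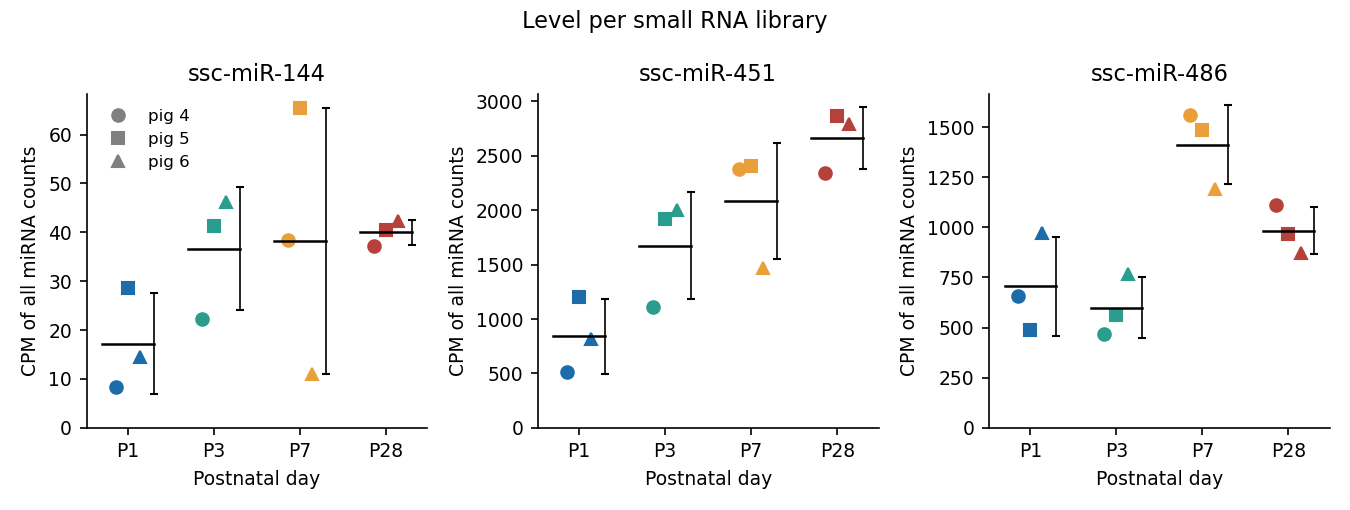
Level of each member in CPM on the vertical axis for each of 12 heart libraries, grouped by age on the horizontal axis, with bars at the mean, error bars of 1 SD (n = 3) and a symbol shape for each pig number. miR-451 stood at 509 to 1199 CPM at P1 and at 2341 to 2863 CPM at P28, miR-486 stood highest at P7, and miR-144 spread from 10.96 to 65.36 CPM at P7.

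miR-144, the partner of miR-451 on the primary transcript, was far less abundant and varied more between pigs at P1, P3 and P7. At P1 it stood at 8.402 CPM in pig 4, 28.58 in pig 5 and 14.53 in pig 6. At P3 it stood at 22.36, 41.31 and 46.21 CPM, and at P7 at 38.53, 65.36 and 10.96 CPM. At P28 it stood at 37.24, 40.42 and 42.39 CPM. The 3 libraries of P28 lay close together and above all P1 libraries, while P7 held both the highest and nearly the lowest value of the study. These levels rest on few reads, 26 counts in P1 pig 4 and 37 in P7 pig 6, and the exact Poisson 95% intervals, which cover counting error alone, were 5.489 to 12.31 CPM for P1 pig 4, 7.715 to 15.1 CPM for P7 pig 6 and 58.55 to 72.75 CPM for P7 pig 5.

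Over the 4 ages miR-144 did not pass the joint test (F = 2.55, adjusted p = 0.162). The means were 17.17 ± 10.35 CPM at P1, 36.63 ± 12.6 at P3, 38.28 ± 27.2 at P7 and 40.02 ± 2.597 at P28 (SD, n = 3). The difference between P1 and P28 was the 1 of 6 pairs of ages that passed (2.62-fold, log2 1.39, SE 0.51, adjusted p = 0.0418). It was not called without P1 pig 4 (log2 0.96, adjusted p = 0.183), P1 pig 6 (1.14, 0.185), P3 pig 4 (1.28, 0.0596), P3 pig 5 (1.27, 0.0668), P7 pig 4 (1.36, 0.0685) or any P28 library (0.0626 without pig 4, 0.0809 without pig 5 and 0.118 without pig 6). With DESeq2 its adjusted p was 0.0668. From P1 to P3 and from P1 to P7 the log2 differences were 0.97 (adjusted p = 0.358) and 0.95 (adjusted p = 0.185). Without P7 pig 6 the joint test (adjusted p = 0.0491) and the rise from P1 to P7 (log2 1.35, adjusted p = 0.0407) passed. Neither passed without any other single library. The rise from P1 to P7 was lowest without P7 pig 5 (log2 0.31, adjusted p = 0.708), and the joint test had its highest adjusted p without P1 pig 4 (0.486). From P3 to P7 the log2 difference was -0.01 (adjusted p = 0.992).

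miR-486 had its highest mean CPM at P7 and its lowest at P3. At P1 it stood at 656.3 CPM in pig 4, 488.7 in pig 5 and 972.2 in pig 6, and at P3 at 469.9, 561.7 and 765.1 CPM. At P7 it stood at 1562, 1486 and 1190 CPM, and at P28 at 1109, 968.4 and 873.1 CPM. In plain CPM all P7 libraries lay above every other library of the study, while with TMM P28 pig 4 (1246) lay above P7 pig 6 (1124). All P28 libraries lay above all P3 libraries, and P1 overlapped with P3 and P28. Of all miRNAs, 30.4% did not overlap between P3 and P7, 43.6% between P1 and P7, 57.2% between P7 and P28 and 42.8% between P3 and P28. The share with every P7 library above all others was not computed. The joint test over the 4 ages passed (F = 12.9, adjusted p = 0.00161), as it did for 49.4% of all miRNAs tested.

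miR-486 rose 2.25-fold from P3 to P7 (log2 1.17, SE 0.22, adjusted p = 0.00823), the second smallest p among the miRNAs in a comparison where 14.4% passed. From P1 to P7, where 26.5% of miRNAs passed, it rose 1.79-fold (log2 0.84, SE 0.22, adjusted p = 0.012). From P1 to P28, where 37.7% passed, it rose 1.61-fold (log2 0.68, SE 0.22, adjusted p = 0.0222). From P3 to P28, where 21.4% passed, it rose 2.01-fold (log2 1.01, SE 0.22, adjusted p = 0.0047). With library totals in place of TMM the rise from P1 to P28 was not called (log2 0.48, adjusted p = 0.11). The means were 705.8 ± 245.5 CPM at P1, 598.9 ± 151.1 at P3, 1413 ± 196.7 at P7 and 983.5 ± 118.8 at P28 (SD, n = 3). From P1 to P3 the log2 difference was -0.32 (SE 0.22, adjusted p = 0.479).

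Between P7 and P28 the fitted log2 difference of miR-486 was -0.16 (SE 0.22, adjusted p = 0.67) although the plain CPM did not overlap, as was the case for 57.2% of miRNAs. Without TMM it was -0.52 (adjusted p = 0.0858). The rise from P3 to P28 was called without any 1 library. The rise from P1 to P28 was not called without P1 pig 4 (adjusted p = 0.101), P1 pig 5 (0.125) or P28 pig 4 (0.0706), that from P1 to P7 not without P1 pig 5 (0.058) or P7 pig 4 (0.0608), and that from P3 to P7 not without P7 pig 5 (0.0608).

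By mean CPM the order of ages was P1, P3, P7, P28 for miR-144 and for miR-451, and P3, P1, P28, P7 for miR-486. For miR-144 no neighbours in this order passed the TMM-scaled test. For miR-486 the neighbours P3 and P1 overlapped and did not pass. Its neighbours P1 and P28 overlapped in CPM but passed with TMM, and its neighbours P28 and P7 did not overlap in CPM but did not pass. Between P1 and P28 all 3 members were called higher with TMM, as were 19.1% of all miRNAs, and with library totals in place of TMM miR-144 (adjusted p = 0.0686) and miR-486 (adjusted p = 0.11) were not. Between P1 and P7, where 26.5% of all miRNAs passed, miR-451 and miR-486 were called higher with either scaling.

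For each member the spread between pigs of one age was smallest at P28, as it was for 29.2% of all miRNAs tested. The coefficient of variation of miR-144 was 60.3% at P1, 34.4% at P3, 71.1% at P7 and 6.49% at P28, and the highest of 3 pigs stood 5.96-fold above the lowest at P7 and 1.14-fold at P28. The coefficient of variation of miR-451 was 41%, 29.5%, 25.7% and 10.6%, and that of miR-486 was 34.8%, 25.2%, 13.9% and 12.1% in the same order of ages. With TMM scaling, a setting added after the values were seen, the P28 value was still the smallest of each member, at 12.3% for miR-144 (highest over lowest pig 1.27), 14.1% for miR-451 and 8.26% for miR-486.

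Against all 257 miRNAs, the spread around the age means (SD of log2 CPM, prior count 2, median of all miRNAs 0.26) was 0.82 for miR-144, the 6th largest, 0.46 for miR-451, the 43rd largest, and 0.31 for miR-486, the 96th. Among the 20 miRNAs nearest in mean level, a comparison chosen after the values were seen, 1 had a larger spread than miR-144, 0 had a larger one than miR-451 and 2 had a larger one than miR-486. The biological coefficient of variation that edgeR fitted was 42.2% for miR-144, 25.4% for miR-451 and 19.3% for miR-486, with 19.8% as the common value over all miRNAs.

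**Figure D2:**
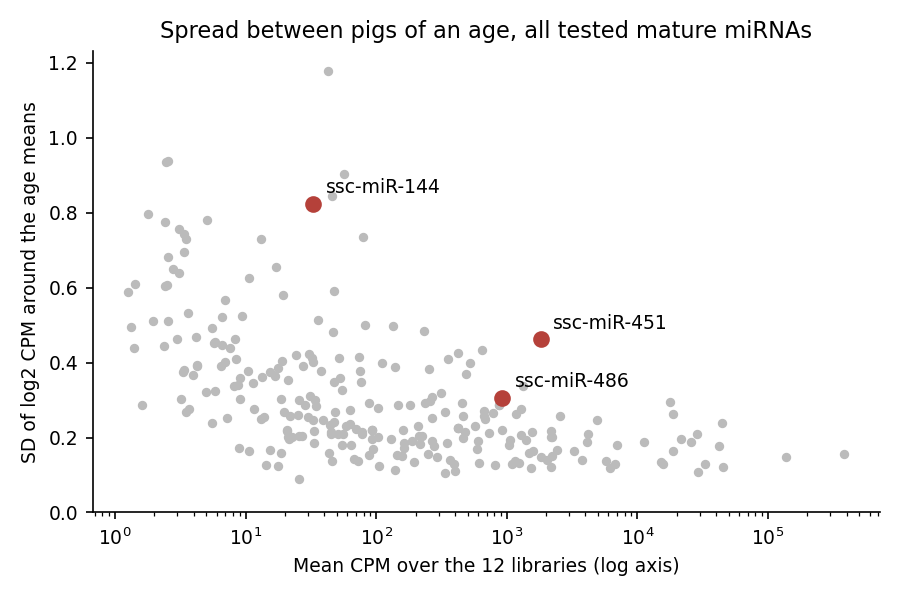
Spread between pigs of one age (SD of log2 CPM around the age means, vertical axis) against mean level over 12 libraries (CPM, log axis) for 257 mature miRNAs, with the 3 members marked. miR-144 (0.82) and miR-451 (0.46) lay above the median of 0.26, and miR-486 (0.31) lay closer to it.

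Within an age, pigs with more miR-451 also had more miR-144. Deviations of log2 CPM from the age mean had a Pearson r of 0.87 between miR-451 and miR-144 and a Spearman rho of 0.94 over 12 libraries, each with p = 0.000772 in an exact two-sided permutation test over all 1296 orders within ages (adjusted p = 0.00231 over 3 pairs of members). An exact p of about 0.00077 is the smallest these orders can give. Without P1 pig 4 and P3 pig 4, the libraries farthest from the median in miR-451, r was 0.88 (n = 10, exact permutation p = 0.00694). The fewer orders of these 10 libraries can give no smaller p. Both miRNAs were below their age mean in P1 pig 4 (-0.68 for miR-451 and -0.86 for miR-144), P3 pig 4 (-0.58 and -0.66) and P7 pig 6 (-0.41 and -1.37), and both were above it in P1 pig 5 (0.63 and 0.93). Their deviations had the same sign in 10 of 12 libraries. As a description over the 256 other miRNAs tested, each of the pair had its highest within-age r with the other. However, miR-499-3p, a miRNA of heart muscle with 7 to 55 counts per library, was nearly as high with miR-144 (0.86). The second highest r with miR-451 was that of miR-30e-3p (0.74). The median r over these miRNAs was -0.01 with miR-144 and 0.01 with miR-451.

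No such relation was detected for miR-486. Its within-age r was 0.13 with miR-451 (rho 0.17, exact permutation p = 0.811 for r, adjusted p = 0.811, n = 12) and 0.14 with miR-144 (rho 0.21, exact permutation p = 0.752, adjusted p = 0.811, n = 12). Without the 2 farthest libraries these became -0.44 (n = 10, exact permutation p = 0.674) and 0.62 (n = 10, exact permutation p = 0.12). In P1 pig 5, where miR-451 and miR-144 were high for their age, miR-486 was low (-0.43). Leaving out 1 library at a time gave a within-age r of miR-451 and miR-486 of -0.18 to 0.78. The highest was that without P1 pig 5, and none passed (exact permutation, adjusted p of 0.0856 to 0.951).

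**Figure D3:**
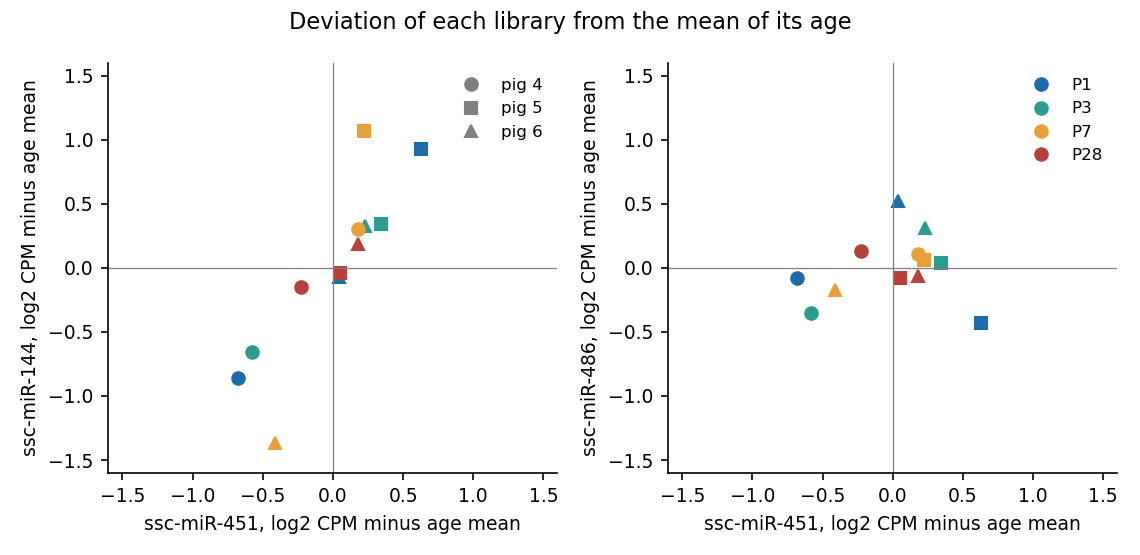
Deviation of log2 CPM from the age mean, with miR-144 (left) and miR-486 (right) on the vertical axes against miR-451. Each point is 1 library (n = 12), coloured by age, with a symbol shape for each pig number. The points of miR-451 and miR-144 lay along one line (r = 0.87), while those of miR-486 with miR-451 (r = 0.13) were scattered.

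Ratios within a library do not depend on its scaling. miR-451 stood 36.8-fold to 134-fold above miR-144, with a median of 58.5, and the highest ratio was that of P7 pig 6, the library with 37 counts of miR-144. The ratio was 66.5 ± 4.02 (SD, n = 3) at P28 and 77.4 ± 50.3 at P7, and no difference between ages was detected (exact permutation test over 15400 assignments of libraries to ages, p = 0.508, adjusted p = 0.508 over 3 ratios, where 6.5e-05 is the smallest p possible).

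The ratio of miR-451 to miR-486 was 0.775 in P1 pig 4, 2.45 in P1 pig 5 and 0.843 in P1 pig 6. It was 2.35, 3.41 and 2.62 at P3, 1.52, 1.62 and 1.23 at P7, and 2.11, 2.96 and 3.2 at P28. The P3 and P28 libraries all lay above the P7 libraries, and P1 overlapped with all other ages through pig 5. Over the 4 ages the ratio did not pass (exact permutation p = 0.0525, adjusted p = 0.158, n = 3 per age), and without P1 pig 5 it did (exact permutation, adjusted p = 0.00253). The ratio of miR-486 to miR-144 ranged from 13.6 to 109 (exact permutation p = 0.168, adjusted p = 0.251).

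**Figure D4:**
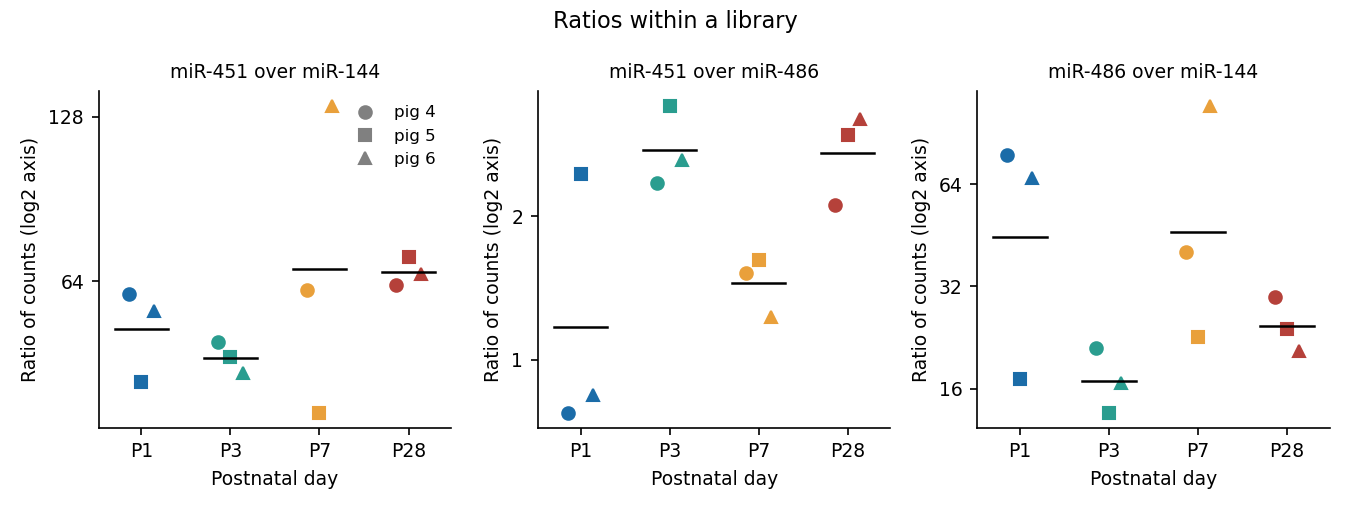
Ratio of CPM between members in each library on a log2 axis, by age, with lines at the geometric mean and a symbol shape for each pig number. miR-451 over miR-486 lay between 1.23 and 1.62 at P7 and between 2.35 and 3.41 at P3, with P1 pig 5 (2.45) apart from the other P1 pigs (0.775 and 0.843).

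Over all 12 libraries, which share the change with age, the miRNA whose log2 CPM was most like that of miR-144 was miR-451 (r = 0.86), followed by miR-499-3p (0.77) and miR-30b-5p (0.76). The miRNAs most like miR-451 were miR-378b-3p (0.91), miR-30b-5p (0.90), miR-1343 (0.88) and miR-142-3p (0.88). Those most like miR-486 were miR-22-5p (0.90), miR-22-3p (0.87) and miR-139-5p (0.84). miR-486 had an r of 0.52 with miR-451 and of 0.26 with miR-144.

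The gene libraries of the same batch allowed a comparison with messenger RNAs of red cells and their precursors, although the gene table covered chromosomes 1, 2, 6 and 13 alone. Of 44 erythroid genes listed, 13 were in the table and 12 were tested, and no globin gene was among them. Of 27 genes largely restricted to the red cell line, 5 were in the table. GFI1B, an erythroid transcription factor, had 0 to 2 counts per library and was not tested, and 4 were tested: EPB42, the membrane protein 4.2, ERMAP, which carries a blood group antigen, RHCE, of the Rh blood group, and TRIM58, a ubiquitin ligase of late red cell precursors. The summed level of the 5 restricted genes was 7.592 to 12.42 CPM at P1, 18.17 to 19.69 at P3, 10.36 to 19.74 at P7 and 1.617 to 4.45 at P28, so P28 lay below all other ages while the P28 levels of miR-451 lay above those of P1 and P3. Of all 5526 genes tested, 8.41% had every P28 library below every earlier one.

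ERMAP (ENSSSCG00000021745, chromosome 6) stood at 5.24, 8.02 and 6.82 CPM at P1, 9.71, 9.68 and 8.25 at P3, 5.15, 7.29 and 5.18 at P7 and 0.77, 2.13 and 2.18 at P28. Every P28 library lay below all others, as for 8.41% of all genes. It fell by 1.99 on the log2 scale from P1 to P28 (SE 0.33, adjusted p = 0.00227), with differences of -2.42 from P3 (adjusted p = 0.00104) and -1.67 from P7 (adjusted p = 0.00435). EPB42 (ENSSSCG00000004714, chromosome 1) stood at 0.941, 2.38 and 1.75 CPM at P1, 6.92, 8.33 and 5.68 at P3, 2.96, 6.53 and 3.64 at P7 and 0.539, 1.57 and 1.38 at P28. Its P3 libraries lay above all P1 and P28 libraries, while P1 and P28 overlapped. Of all genes, 15.8% did not overlap between P1 and P3 and 30.7% between P3 and P28. From P1 to P3 its log2 difference was 2.02 (SE 0.42, adjusted p = 0.0866), which passed with DESeq2 (adjusted p = 0.000814) and without a filter on low counts (adjusted p = 0.0322). It fell by 2.55 from P3 to P28 (SE 0.44, adjusted p = 0.0028), with a difference of -1.77 from P7 (adjusted p = 0.0142) that was not called without P7 pig 5 (adjusted p = 0.067).

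TRIM58 (ENSSSCG00000040066, chromosome 2) had means of 0.894 CPM at P1, 1.94 at P3, 2.56 at P7 and 0.386 at P28 and rested on 3 to 63 counts per library. Its fall from P3 to P28 (log2 -2.36, adjusted p = 0.048) lost its call in 9 of 12 fits that left out 1 library (each P1 library, P3 pig 5, P3 pig 6, P7 pig 4 and each P28 library), with adjusted p of 0.0529 to 0.191, and also with the column number as a replicate block (log2 -2.34, adjusted p = 0.0553). The fall from P7 (log2 -2.60, adjusted p = 0.0268) was not called without P7 pig 5 (adjusted p = 0.138), P28 pig 4 (0.0934) or P28 pig 5 (0.0965). RHCE (ENSSSCG00000026791, chromosome 6) had 1 to 15 counts per library, with 1, 3 and 2 counts at P28, and was not called in any pair of ages (adjusted p of 0.122 from P1 to P28, 0.146 from P3 and 0.1 from P7).

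Of the 4 restricted genes tested, 3 were lower at P28 than at P3 (median log2 difference -2.39, where 8.51% of genes were lower and the median of all genes was -0.04), 3 were lower than at P7 (median -1.82 against 0.01, where 10.5% of genes were lower) and 1 was lower than at P1 (median -1.54 against 0.00, where 7.93% of genes were lower). Of the 12 erythroid genes, 4 were lower and 2 higher at P28 than at P3 (median log2 difference -0.50, with 7.98% of all genes higher), and 4 were lower and 0 higher than at P7 (median -0.25, with 8.34% of all genes higher). Those lower than at P3 were EPB42, ERMAP, TRIM58 and E2F2, a cell cycle factor used in late red cell maturation, and those higher were FECH, the last enzyme of haem synthesis, and TFRC, the transferrin receptor, both of which cells outside the red cell line also use. Between P3 and P28 the erythroid genes called fell from 6 to 2 without P28 pig 6. EPB42 and ERMAP kept their calls between these ages without any 1 library. Between P1 and P28, 1 of 12 was higher (FECH, log2 0.50, adjusted p = 0.021) and 1 was lower (ERMAP), with a median of -0.43 and 7.38% of all genes higher. ERMAP kept this call without any 1 library. FECH was not called without P1 pig 4, P1 pig 6, P28 pig 5 or P28 pig 6. By edgeR's quasi-likelihood test 0 of 12 passed between P1 and P3, between P1 and P7 or between P3 and P7, where 0.0543%, 2.01% and 2.21% of all genes passed. An unadjusted p under 0.05 was found for 2 of the 12 between P1 and P3 (EPB42 higher and TFRC lower at P3, with 15.2% of all genes), for 5 between P1 and P7 (4 higher and 1 lower, with 16.1% of all genes) and for 3 between P3 and P7 (2 higher and 1 lower, with 18.9%). DESeq2 called 1 higher and 1 lower between P1 and P3, 1 higher and 1 lower between P1 and P7 and 0 between P3 and P7, and it called 2.21%, 6.59% and 6.57% of all genes.

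**Figure D5:**
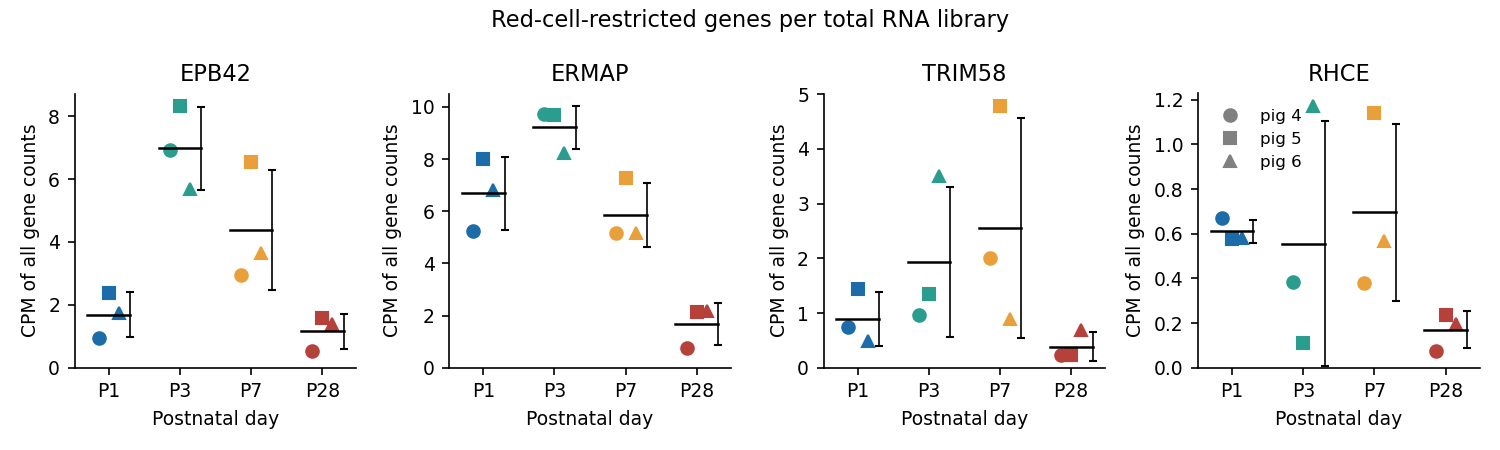
Levels of the 4 red-cell-restricted genes tested (CPM of all gene counts, vertical axes) by age, 1 point per library with bars at the mean and error bars of 1 SD (n = 3). ERMAP stood at 0.77 to 2.18 CPM at P28 and at 5.15 CPM or more at every earlier age, and EPB42 stood highest at P3 (5.68 to 8.33 CPM).

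Markers of other cells in the same libraries also moved with age. Of 7 leukocyte miRNAs tested, 4 were higher at P28 than at P1 (miR-142-3p, miR-142-5p, miR-146a-5p and miR-150) and 1 was lower (miR-155-5p), with a median log2 difference of 1.06, and miR-146a-3p was at 0 in every library. Of all miRNAs, 19.1% were higher at P28 than at P1 and 37.7% were called in either direction. Their summed level was 356.5 to 526.1 CPM at P1, 383.4 to 456.6 at P3, 619 to 689.1 at P7 and 482.5 to 735.1 at P28. Of 5 leukocyte genes tested, 2 were higher at P28 than at P1, where 7.38% of all genes were higher. These were TYROBP, from 8.09 to 15.1 CPM, and C5AR1, from 9.18 to 23.2 CPM. The summed level of the list was 707.3 to 791.5 CPM at P1 and 723.7 to 826 at P28, most of it from CD79A alone (mean 609 CPM at P1 and 543 at P28). The summed level of 7 cardiomyocyte miRNAs was 445600 to 480800 CPM at P28 and 339800 to 424500 at earlier ages, with 3 higher at P28 than at P1, and that of 5 cardiomyocyte genes was 58080 to 74770 over all ages, with 1 higher and 1 lower. Of 2 mature forms of miR-126, an endothelial miRNA, edgeR's quasi-likelihood test called 0 between P1 and P28, as did DESeq2, and 0 had an unadjusted p under 0.05. The part of these cells in the levels of miR-144, miR-451 and miR-486 was not tested.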

How the data were processed

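Small RNA and total RNA libraries of 12 pig hearts were used. For the miRNAs the authors deposited expected counts, not normalized, with 1 entry for each precursor of a mature miRNA and reads matching several precursors shared among them (81.1% of values were whole within 0.05). The counting tool for miRNAs is not given in the sources used here. For genes the authors deposited counts without normalization, and 1 line without counts was left out. The submitters' notes name STAR 2.7.9a and MultiQC 1.11.

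Entries were summed per mature miRNA and rounded. Features with at least 10 counts in at least 3 libraries were tested with edgeR 4.0.16 in R 4.3.3 (quasi-likelihood, TMM, 4 ages in 1 fit, 8 residual degrees of freedom), tested on simulated data. SEs were log2 differences divided by the root of F. Exact permutation tests and plots used Python 3.11.15 and matplotlib 3.10.9. DESeq2 1.42.0, other scalings and filters, 2-age fits and leaving out each library were alternatives. Samples were grouped by the age in the labels, and the numbers 4 to 6 by which pigs are named, and which link gene to miRNA libraries, come from the column names alone. The members and marker lists (erythroid, red-cell-restricted, leukocyte, cardiomyocyte, endothelial) were chosen with earlier results of these data known. The genes named are mainly the red-cell-restricted genes tested and members of the lists that were called. GFI1B, CD79A, miR-126 and miR-146a-3p are named without a call. The likest miRNAs are those with the highest r. Symbols came from the gene table, with 283 filled from gene IDs.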

Additional observations from a re-analysis of the deposited data

How the results depend on the processing

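The calls of miR-451 and miR-486 over the 4 ages, of miR-451 from P1 to P28 and of miR-486 from P3 to P28 held under every alternative run, and 0 directions of called values reversed. With library totals in place of TMM, the calls of miR-144 from P1 to P28 (log2 1.19, adjusted p = 0.0686), miR-451 from P3 to P28 (0.67, 0.0894) and miR-486 from P1 to P28 (0.48, 0.11) were lost. With DESeq2 the call of miR-144 from P1 to P28 was lost (log2 1.39, adjusted p = 0.0668), and miR-451 passed from P1 to P3 (0.90, 0.0398) and from P7 to P28 (0.74, 0.0443). With the replicate block, that is the column number as a block, it passed too (log2 0.93 and 0.71, adjusted p 0.0348 and 0.0383), but the numbers do not pair the pigs: 2 of 18 same-numbered pairs had a correlation over 0.1 and 2 of 12 libraries correlated best with their own number. It also passed from P7 to P28 in a fit of those 2 ages (0.67), and in both pairs at the study's thresholds of an unadjusted p and a log2 change over 0.5 (0.90 and 0.73). Counts of miRNAs called changed from 11 to 18 (DESeq2) and 0 (2 ages only) between P1 and P3, from 37 to 17 (totals) and 9 (2 ages) between P3 and P7, and from 55 to 35 (2 ages) between P3 and P28. Of erythroid genes, 2 (DESeq2, no filter and block) were called between P1 and P3 in place of 0, EPB42 higher and TFRC lower at P3, with 2.21%, 0.406% and 0.127% of all genes called. Between P1 and P7, DESeq2 called 2 (E2F2 higher, TFRC lower, with 6.59% of all genes), and no filter and block called 1 (TFRC lower, with 2.32% and 1.74%).

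Leaving out each library in turn gave adjusted p of 0.0491 to 0.486 for miR-144 over the 4 ages and log2 differences of 0.96 to 2.01 (P1 to P28) and 0.31 to 1.63 (P1 to P7), of 0.80 to 1.55 (P1 to P7) and 0.65 to 1.06 (P3 to P28) for miR-451, and of 0.49 to 0.86 (P1 to P28), 0.70 to 1.07 (P1 to P7) and 0.98 to 1.33 (P3 to P7) for miR-486. The adjusted p of the ratio of miR-451 to miR-486 ranged from 0.00253 to 0.286. miRNAs called numbered 1 to 16 (P1 to P3), 29 to 81 (P1 to P7), 29 to 67 (P3 to P28), 0 to 63 (P3 to P7) and 46 to 91 (P7 to P28), and erythroid genes 0 to 1 (P1 to P3), 0 to 1 (P1 to P7), 1 to 4 (P1 to P28), 2 to 7 (P3 to P28) and 2 to 4 (P7 to P28). The cause of these changes was not tested. With 26 counts in its lowest library, miR-144 is the member limited most by depth, and 3 pigs per age limit every comparison.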

Other observations

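The restricted red cell genes were also set against the members within ages, a comparison added after the values were seen, which links gene and miRNA libraries by the number in their column names. Over 12 relations of log2 CPM deviations from the age mean (n = 12 libraries each, exact permutation over 1296 orders), 0 had an adjusted p under 0.05 and 1 had an unadjusted p under 0.05. That relation was between miR-144 and TRIM58 (r = 0.77, exact permutation p = 0.0301, adjusted p = 0.213, rho = 0.73), and without the 2 farthest libraries r was 0.61 (exact permutation p = 0.162). For miR-451, r was 0.61 with TRIM58, 0.57 with EPB42, 0.42 with ERMAP and -0.01 with RHCE. For miR-486, r lay between -0.30 (ERMAP) and 0.15 (RHCE).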
